A study of Mus musculus with 50 samples.

Results

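The transcripts of 7 matrix metalloproteinases (MMPs) and 3 tissue inhibitors of metalloproteinases (TIMPs) were followed across mouse mammary gland (MG) tumors. The 10 genes, Mmp2, Mmp3, Mmp9, Mmp11, Mmp13, Mmp14, Mmp19, Timp1, Timp2 and Timp3, were taken by gene name from a table of 37701 genes, and each name matched 1 row. All 10 passed the filter for testing, a mean of at least 0.5 RPKM (reads divided by transcript length and library size) over the tumors, as did 16733 genes in all.

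The data were poly-A RNA sequencing of 50 tumors, 1 per mouse, in 5 treatment groups of 10. All mice were female p53R270H/+WAPCre animals, in which Cre under the whey acidic protein promoter turns on a heterozygous p53 mutation in the mammary epithelium. From 8 weeks of age they were injected subcutaneously on alternate days with vehicle, insulin, glargine, X10 or IGF1 until a tumor formed, and the tumor was taken at 1 cm3, 24 h after the last injection. The vehicle tumors carry the title Untreated in the labels, and single tumors are named here by their titles, which end in the number of the mouse. Glargine and X10 are engineered analogues of insulin. X10 and IGF1 bind the IGF1 receptor with high affinity, whereas insulin and glargine act mainly through the insulin receptor. The doses are not given as amounts in the sources used here, and the study describes the insulin-like compounds as equal in glycemic effect at its doses, so the amounts cannot be said to match. The tumors are a chosen set, since the authors took from each group those that looked like epithelial to mesenchymal transition (EMT) and had a latency nearest the group's median. Each sample was a piece of whole tumor, so that fewer cells of a type and less RNA per cell cannot be told apart.

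MMPs are zinc-dependent enzymes that cut the proteins of the extracellular matrix, and most are made as inactive precursors that other proteases cut. They divide into collagenases (Mmp13), stromelysins (Mmp3, and Mmp11, which is activated inside the cell by furin), gelatinases (Mmp2 and Mmp9), membrane-bound enzymes (Mmp14) and others such as Mmp19. TIMPs bind the active site and block it, and Timp2 also forms a complex with Mmp14 at the cell surface in which the precursor of Mmp2 is activated. In MG tumors much of the MMP transcript is known to come from stromal and inflammatory cells rather than from the cancer cells. Transcript levels do not show how much of an enzyme was active.

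Library sizes recovered from the RPKM values ran from 26.6 to 51.9 M reads with a median of 40.9 M, and the group medians from 35.4 M in X10 to 44.0 M in vehicle. No gene of the 10 had fewer than 169 reads in any tumor, so counting error was small beside the spread between tumors. None of the 10 was correlated with library size, the smallest adjusted p being 0.744 (permutation test, n = 50 tumors). The summed RPKM of 6 epithelial markers ran from 9.58 to 5098 over the tumors. The luminal keratin Krt8 had a median of 173.9 RPKM, and the basal keratin Krt5 had a median of 0.813 RPKM and was listed at 0 in 2 tumors.

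The deposited RPKM could not be set side by side between genes, because the gene length used was often that of a median transcript rather than of the full coding one. For Mmp9 the length was 793.5 bases against 3175 bases for the longest coding transcript, a ratio of 0.250, so that its RPKM stands about 4-fold too high beside a gene such as Mmp3, whose ratio was 0.998. Levels between genes are therefore given per kilobase of the longest coding transcript in GENCODE M21, and all values within 1 gene are given as RPKM. On the rescaled level Timp1 had the highest median of the 10, at 345.6 with a range of 197.2 to 1548. Timp2 followed at a median of 231, while by mean Mmp3 (415) stood above Timp1 (404). The medians of Mmp3, Mmp13, Mmp2, Mmp14 and Mmp9 lay close together, at 192, 186.3, 181, 176 and 157, and their ranges over the tumors overlapped. Timp3, Mmp19 and Mmp11 were lower, at 25.1, 17.2 and 10.8.

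The MMP with the highest rescaled level differed from tumor to tumor. It was Mmp13 in 11 tumors, Mmp3, Mmp2 and Mmp9 in 10 each and Mmp14 in 9, while the highest TIMP was Timp1 in 37 tumors and Timp2 in 13. The summed level of the 7 MMPs ran from 224 to 8917 and that of the 3 TIMPs from 442 to 1942. The MMP sum was above the TIMP sum in 40 of 50 tumors, with a median ratio of 1.63 and a range of 0.229 to 12.3. By group, 9 of the vehicle tumors, 8 of insulin, 9 of glargine, 6 of X10 and 8 of IGF1 were above. The group medians of the ratio were 1.79, 1.605, 2.26, 1.13 and 1.47 in the same order, and the ranges of the groups overlapped. The MMP sum thus covered a wider range over the tumors than the TIMP sum did.

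**Figure D1:**
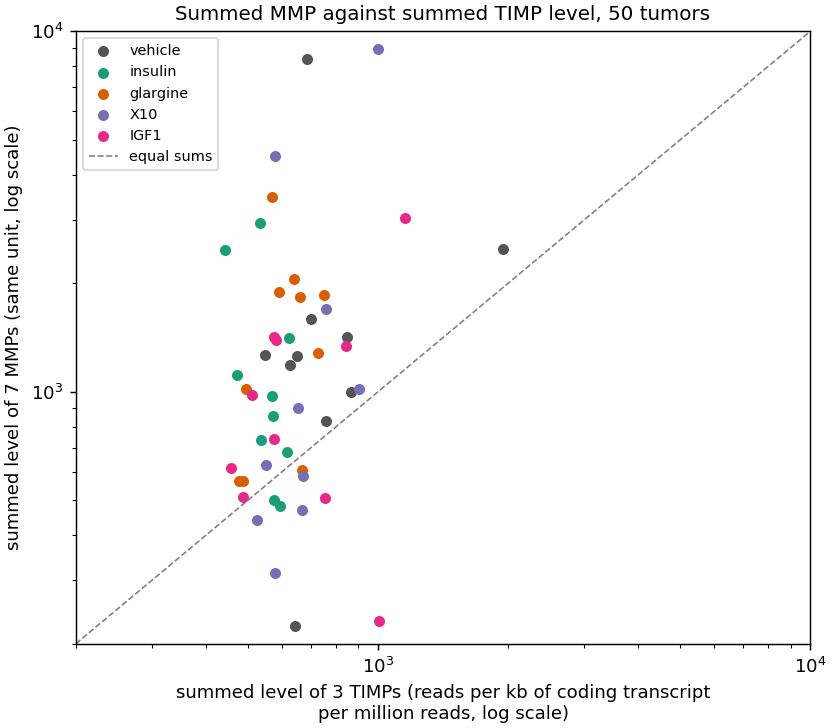
Summed level of 7 MMPs (vertical axis) against that of 3 TIMPs (horizontal axis) in 50 tumors, both as RPKM rescaled to the longest coding transcript, on log scales; each dot is 1 tumor coloured by treatment and the dashed line marks equal sums. 40 dots lie above the line, and the dots spread more along the MMP axis (224 to 8917) than along the TIMP axis (442 to 1942).

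The spread between tumors was widest for 3 enzymes. Mmp13, collagenase-3, ran from 1.499 to 2889 RPKM, a 1927-fold range. Mmp3, stromelysin-1, ran from 9.28 to 3955 RPKM, a 426-fold range, and Mmp9, gelatinase B, from 18.6 to 7727 RPKM, a 415-fold range. Their standard deviations on the log2(RPKM + 0.5) scale, 2.12, 1.91 and 2.04, were larger than those of 99.1%, 98.6% and 99.0% of the 8452 genes with a mean of at least 10 RPKM, for which the median was 0.375. Mmp14, the membrane-bound MT1-MMP, was the steadiest, with values between 93.3 and 392 RPKM and a standard deviation of 0.39. Timp2 was nearly as steady, from 144 to 626 RPKM, whereas Timp3, the TIMP that is held in the matrix, ran from 21.0 to 532 RPKM.

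Single tumors held the extremes of several genes at once. The tumor X10_100 had the highest Mmp3, Mmp13 and Mmp19 of all 50. Untreated_161 had the highest Mmp2 and Timp3 and the lowest Timp1, and Untreated_182 had the lowest Mmp2, Mmp3 and Mmp19. IGF1_158 had the lowest Mmp13 and Mmp14, and glargine_73 the highest Mmp9 and Mmp14. Untreated_161 and Untreated_182 also stood last and second to last of the 50 in the fibroblast marker score, ranks 50 and 49. The part of cell content in these values was not tested.

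**Figure D2:**
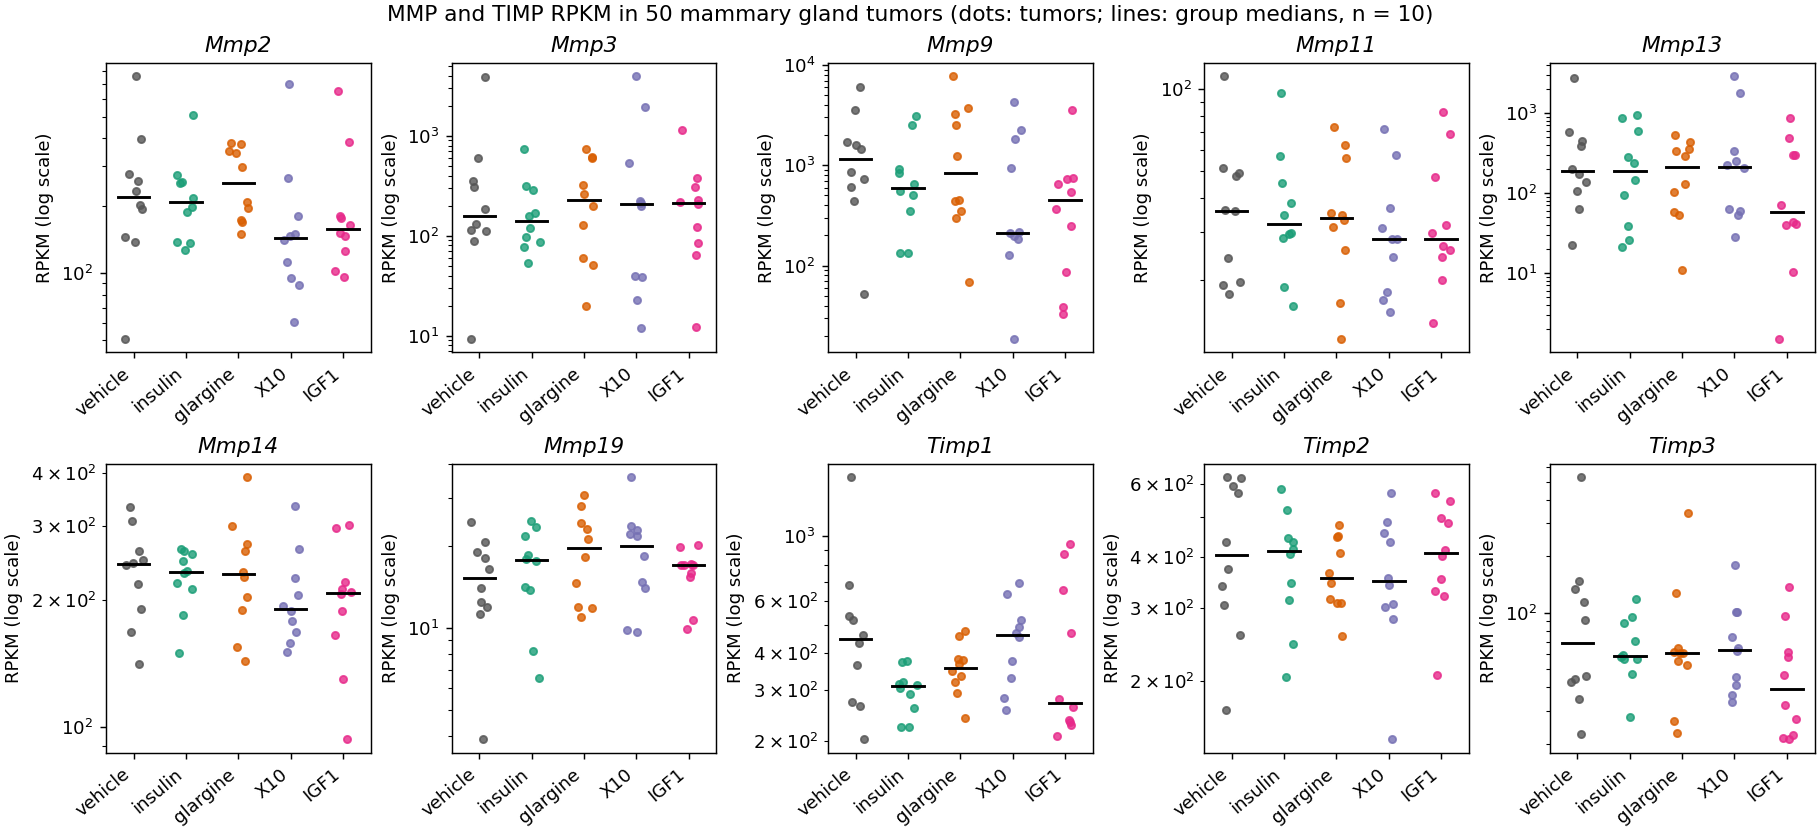
RPKM (log scale) of each of the 10 genes in each tumor, by treatment; dots are tumors, black lines are medians of 10 tumors, and each panel has its own scale. Within every group Mmp3, Mmp9 and Mmp13 span a wide range, and the ranges of all 5 groups overlap for every gene.

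The first question was whether any treatment changed these genes relative to vehicle. For the gelatinase Mmp9, values ran from 52.4 to 6039 RPKM with a median of 1158 in vehicle, from 132.4 to 3078 with a median of 599.8 in insulin, from 69.1 to 7727 with a median of 846 in glargine, from 18.6 to 4248 with a median of 213 in X10, and from 32.9 to 3586 with a median of 453 in IGF1. The X10 and IGF1 medians were the lowest, and the highest tumor of each lay above the highest insulin tumor. For Mmp13 the values ran from 22.3 to 2740 RPKM with a median of 186.2 in vehicle, from 21.3 to 950 with a median of 189.5 in insulin, from 11.0 to 530 with a median of 209 in glargine, from 27.9 to 2889 with a median of 214 in X10, and from 1.499 to 877 with a median of 57.1 in IGF1. The IGF1 median was thus below the other medians, while all groups overlapped.

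For the inhibitor Timp1 the values ran from 203 to 1593 RPKM with a median of 447.5 in vehicle, from 223 to 375 with a median of 308 in insulin, from 241 to 477 with a median of 356 in glargine, from 256 to 693 with a median of 460.3 in X10, and from 209 to 941 with a median of 271 in IGF1. The insulin and glargine tumors lay in a narrow band, and the highest vehicle, X10 and IGF1 tumors lay above it. For Timp3 the medians were 68.5 RPKM in vehicle, 58.5 in insulin, 61.2 in glargine, 63.5 in X10 and 39.3 in IGF1, and the vehicle tumors ran from 22.5 to 532 and the IGF1 tumors from 21.0 to 136.5. For Mmp3 the medians were 158.4, 139, 230.3, 206 and 214 RPKM in the same order of groups, within ranges that reached from 9.28 to 3850 in vehicle alone. Mmp2, gelatinase A, had medians of 218, 207, 253, 144 and 157 RPKM, and Mmp14 of 244, 234, 230.4, 191 and 208 RPKM.

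No gene of the 10 passed the test against vehicle in any treatment group (limma on log2(RPKM + 0.5), Benjamini-Hochberg adjustment over 16733 genes). For insulin 0 of 10 were called, beside 0% of all genes tested, 1 of the 10 and 11.1% of all genes had an unadjusted p under 0.05, and the smallest adjusted p of the 10 was 0.391. For glargine 0 of 10 were called, beside 0% of all genes, 0 of the 10 and 6.23% of all genes had an unadjusted p under 0.05, and the smallest adjusted p was 0.827. For X10 0 of 10 were called, beside 0.0657% of all genes, 0 of the 10 and 11% of all genes had an unadjusted p under 0.05, and the smallest adjusted p was 0.580. For IGF1 0 of 10 were called, beside 0.00598% of all genes, 1 of the 10 and 8.84% of all genes had an unadjusted p under 0.05, and the smallest adjusted p was 0.563. The limma voom fit on recovered reads also called 0 of the 10 in these comparisons. The 4 comparisons share the same vehicle tumors. The p-values treat the tumors of a group as independent animals.

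The differences from vehicle were mostly small or poorly determined. Over the 10 genes the median log2 difference was -0.19 in the insulin group, -0.09 in glargine, -0.20 in X10 and -0.25 in IGF1, beside 0.03, 0.02, -0.03 and 0.02 over all genes tested. Timp1 in insulin differed by -0.60 ± 0.26 (SE) on the log2 scale, 0.659-fold with a 95% interval of 0.457 to 0.950, at an unadjusted p of 0.0262 and an adjusted p of 0.391. Without the tumor Untreated_197, which had the highest Timp1 at 1593 RPKM, this difference was -0.40. In IGF1, Timp3 differed by -0.85 ± 0.42 (SE), with an unadjusted p of 0.0492 and an adjusted p of 0.563, and by -0.55 without Untreated_161, which had the highest Timp3. Mmp9 in IGF1 differed by -1.67 ± 0.87 (SE), 0.315-fold with a 95% interval of 0.0938 to 1.06 and an adjusted p of 0.594. Mmp13 in IGF1 differed by -1.55 ± 0.92 (SE) with an adjusted p of 0.678, and by -0.97 without IGF1_158, the tumor at 1.499 RPKM. For the steady Mmp14 the 95% intervals against vehicle were narrow, for example -0.39 to 0.32 in insulin and -0.36 to 0.35 in glargine, whereas for Mmp3 in insulin the interval ran from -2.04 to 1.401.

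**Figure D3:**
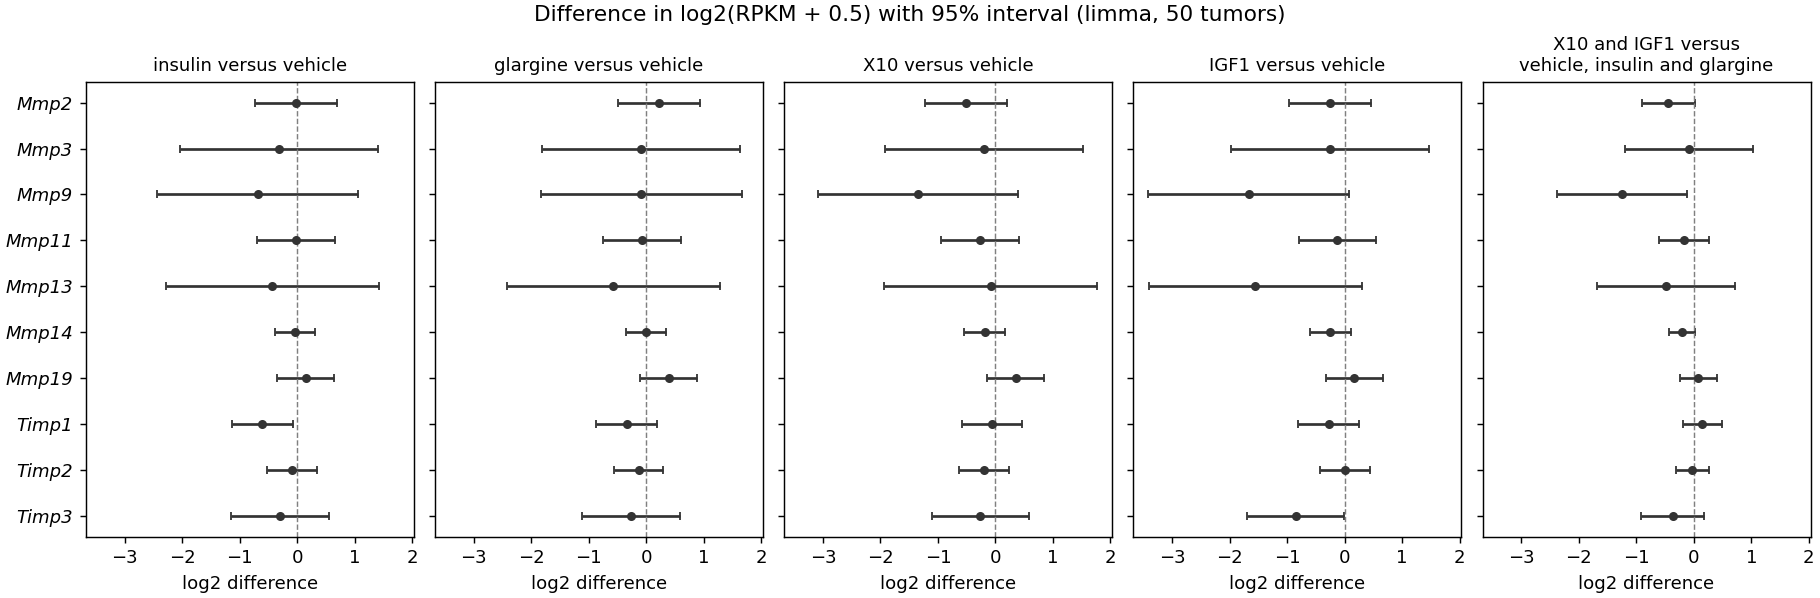
Difference in log2(RPKM + 0.5) of each of the 10 genes in 5 comparisons, with 95% intervals as bars from the limma fit over 50 tumors (10 per group); the dashed line marks no difference. The bars of Mmp3, Mmp9 and Mmp13 are the widest and those of Mmp14 the narrowest, and the bars that leave out 0 (Timp1 in insulin, Timp3 in IGF1 and Mmp9 in the pooled comparison) belong to genes with adjusted p-values of 0.391, 0.563 and 0.401.

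The second question set the ligands with high affinity for the IGF1 receptor, X10 and IGF1, against vehicle, insulin and glargine. Here 0 of 10 genes were called by limma, beside 0.155% of all genes, with 0 by voom as well, and 1 of the 10 had an unadjusted p under 0.05 beside 10.5% of all genes. That gene was Mmp9, which differed by -1.25 ± 0.56 (SE) on the log2 scale, 0.421-fold with a 95% interval of 0.193 to 0.919, at an adjusted p of 0.401. Mmp2 differed by -0.44 ± 0.23 (SE) with an adjusted p of 0.502, and Mmp14 by -0.21 ± 0.11 (SE) with an adjusted p of 0.537. The remaining differences lay between -0.48 and 0.15. The test of any difference among the 5 groups called 0 of 10 as well, beside 0.102% of all genes, with 0 of the 10 and 13.1% of all genes at an unadjusted p under 0.05 and a smallest adjusted p of 0.564 (limma F test; 0 also by voom). Treatment group accounted for between 0.373% (Mmp3) and 12.4% (Timp1) of the variance of each gene on the log2 scale, where 8.16% is expected when groups do not matter.

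The analogues were also set against insulin itself. Between glargine and insulin 0 of 10 were called, beside 0% of all genes, with 0 of the 10 and 3.96% of all genes at an unadjusted p under 0.05 and a smallest adjusted p of 0.990 (limma; 0 also by voom). Between X10 and insulin 0 of 10 were called, beside 0.102% of all genes, with 1 of the 10 and 11.3% of all genes at an unadjusted p under 0.05 (limma; 0 also by voom). That gene was Timp1, which differed by 0.54 ± 0.26 (SE), 1.45-fold with a 95% interval of 1.01 to 2.09 and an adjusted p of 0.419. For Mmp9 between X10 and insulin the 95% interval of the log2 difference ran from -2.41 to 1.08, and between glargine and insulin from -1.15 to 2.34.

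Between tumors, most of the MMPs varied together. Of the 45 pairs among the 10 genes, 14 were correlated over the 50 tumors (Pearson r of log2(RPKM + 0.5), permutation test with 100000 resamples, adjusted over the 45 pairs), and all 14 were positive and joined 2 MMPs, out of 21 such pairs. Of the 21 pairs of an MMP with a TIMP 0 were correlated, with r between -0.15 and 0.22 and a median of 0.02. Without IGF1_158 the pair of Mmp14 and Timp1 passed, at r = 0.392 (adjusted p = 0.018, permutation test). Of the 3 pairs of TIMPs 0 were correlated, and Timp1 with Timp2 had r = -0.26 (adjusted p = 0.199) and a Spearman rho of -0.35 (adjusted p = 0.0533). Without Untreated_197, which had the highest Timp1, this pair passed, at r = -0.42 (adjusted p = 0.0114, permutation test). Mmp11 was in none of the 14 pairs, its r with the other 6 MMPs lying between -0.11 and 0.22. By Spearman rho 11 pairs passed. The share of other gene pairs that pass the same test was not determined. The counts are thus not shown to be particular to these genes.

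The closest pair was Mmp3 with Mmp13, at r = 0.777 and rho = 0.718, each at a permutation p of 1e-05, which is the smallest the resampling can give, and adjusted p-values of 0.000112 and 0.0003. Without the 2 tumors farthest from the median of Mmp3, X10_100 and Untreated_161, r was 0.724. With the group means removed r was 0.7998, and within the single groups it lay between 0.725 and 0.893. Mmp2 with Mmp3 followed at r = 0.704 and rho = 0.57 (adjusted p = 0.000112 and 0.0003), 0.616 without the same 2 tumors and 0.732 with group means removed. Mmp3 with Mmp9 had r = 0.609 and rho = 0.575 (adjusted p = 0.000112 and 0.00045), 0.564 without them and 0.631 with group means removed. Mmp13 with Mmp19 had r = 0.598 and rho = 0.624 (adjusted p = 0.000225 and 0.0003), 0.573 without IGF1_158 and IFG1_132 and 0.644 with group means removed. The other 10 pairs had r between 0.356 (Mmp3 with Mmp14) and 0.577 (Mmp3 with Mmp19). With group means removed 14 pairs passed as well.

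**Figure D4:**
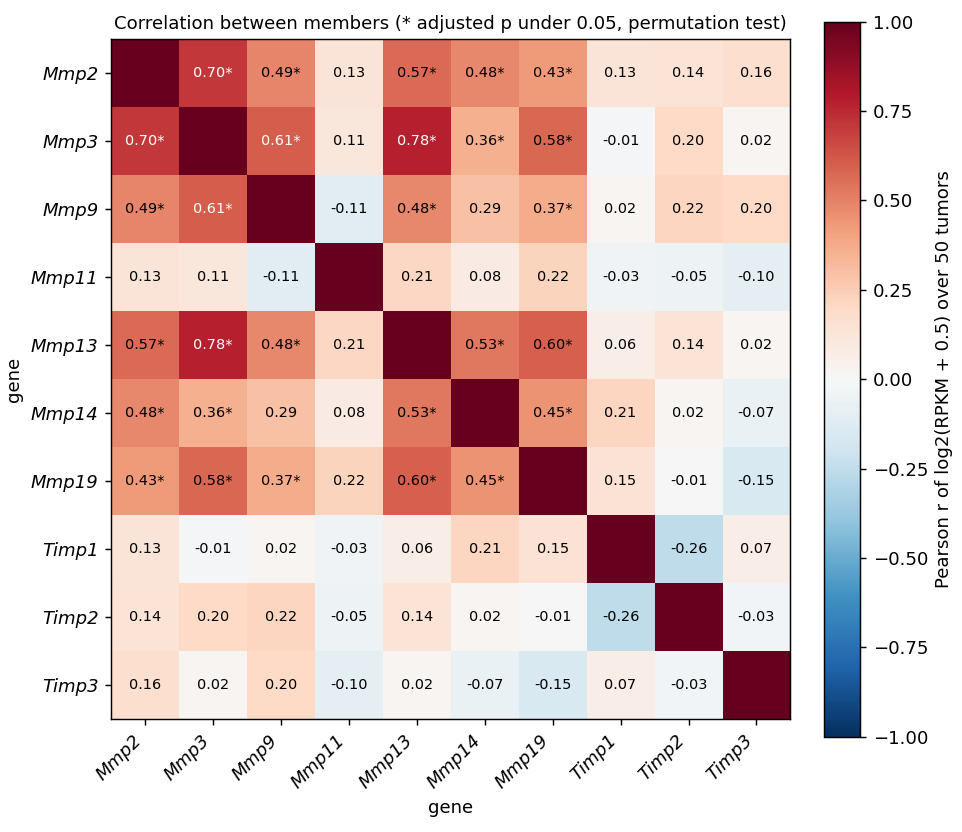
Pearson r of log2(RPKM + 0.5) over 50 tumors for the 45 pairs of the 10 genes, as a colour from -1 to 1 with the value printed; an asterisk marks an adjusted p under 0.05 (permutation test). The asterisks fill the block of Mmp2, Mmp3, Mmp9, Mmp13, Mmp14 and Mmp19 except for Mmp9 with Mmp14 (0.29; adjusted p from 0.0328 to 0.0453 without glargine_62, glargine_69 or IFG1_132), and none stands beside Mmp11 or a TIMP.

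Mmp3 and Mmp13 lie in the cluster of MMP genes on chromosome 9, and their promoters are shown because these 2 genes and their neighbour Mmp10 varied together. In GRCm38, GENCODE places Mmp13 at chr9:7272514-7283331 and Mmp3 at chr9:7445822-7455975, both on the + strand and 173 kb apart by their starts, within a run of 10 Mmp genes that spans 427 kb. Mmp10, stromelysin-2, at chr9:7502352-7510240, was the tested gene with the pattern nearest to Mmp13 (rho = 0.760 over 50 tumors) and had rho = 0.672 with Mmp3. Its group medians lay between 8.35 RPKM in glargine and 19.8 in vehicle and IGF1. The 250 bases before each RefSeq start are given on the + strand of GRCm38.p6, with the letters of the AP-1 motif TGANTCA in capitals. They lie at chr9:7445572-7445821 for Mmp3, chr9:7272264-7272513 for Mmp13 and chr9:7502092-7502341 for Mmp10. The RefSeq start of Mmp10 lies a little before the GENCODE start given above.
Mmp3: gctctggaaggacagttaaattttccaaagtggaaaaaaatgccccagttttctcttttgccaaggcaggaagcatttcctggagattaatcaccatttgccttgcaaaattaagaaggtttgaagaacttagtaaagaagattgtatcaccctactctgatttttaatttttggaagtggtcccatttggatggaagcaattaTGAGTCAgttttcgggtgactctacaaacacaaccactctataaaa
Mmp13: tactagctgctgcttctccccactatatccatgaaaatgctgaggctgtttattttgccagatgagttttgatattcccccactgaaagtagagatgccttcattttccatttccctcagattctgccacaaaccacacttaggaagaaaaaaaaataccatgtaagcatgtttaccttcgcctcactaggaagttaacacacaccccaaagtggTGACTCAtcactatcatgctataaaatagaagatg
Mmp10: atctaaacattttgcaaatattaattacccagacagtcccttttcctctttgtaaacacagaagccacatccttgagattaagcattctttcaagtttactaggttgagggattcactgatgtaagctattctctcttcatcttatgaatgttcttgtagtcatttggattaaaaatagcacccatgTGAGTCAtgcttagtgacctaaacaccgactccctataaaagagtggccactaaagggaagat

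AP-1, a dimer of Fos and Jun proteins, is known to drive several MMP genes. The motif TGANTCA, which reads the same on both strands, begins 46 bases before the RefSeq start of Mmp3. It begins 35 before that of Mmp13 and 63 before that of Mmp10. The letters TATAAA stand 7, 16 and 29 bases before the same starts. Promoters were at hand for 7 of the 10 genes (Mmp2, Mmp9 and Mmp19 had none), and the other 5, Mmp11, Mmp14, Timp1, Timp2 and Timp3, held neither of these motifs and each held GGGCGG on 1 of the strands. Over 32851 promoter windows of the same length, 6.75% held TGANTCA, 12.4% TATAAA and 32.7% GGGCGG, on either strand. Of the same cluster, Mmp1a, Mmp1b and Mmp20 and 1 of the 2 windows of Mmp7 also held both TGANTCA and TATAAA, and the median levels of these 4 genes were 0.1435, 0.221, 0.021 and 0.0795 RPKM. With Mmp13, Mmp1b had rho = 0.681 and Mmp7 rho = 0.205. A match describes the letters alone and is not a shown binding site. Among the transcripts of the 6 AP-1 genes listed, Fosl2 had rho = 0.547 with Mmp3 and 0.449 with Mmp13, Fos 0.49 and 0.334, Junb 0.266 and 0.401 and Fosl1 0.176 and 0.0669. Jun had -0.10 and -0.05 and Jund -0.02 with both.

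The gene with the pattern nearest to Mmp3 was Gm15242 (rho = 0.973), a processed pseudogene of 283 bases. It shares 11.9% of its 31-base words with Mmp3 and 0% with Mmp10 and Mmp13, so that reads of Mmp3 could be counted for it, and how far its values came from such reads was not tested. The next were Btg3 (rho = 0.718), an antiproliferative gene, and Tnfsf11 (rho = 0.679), which encodes RANKL, the cytokine that drives osteoclast formation. For Mmp13 the gene after Mmp10 and Gm15242 was Il11 (rho = 0.696), a cytokine of the IL-6 family.

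Mmp9 (ENSMUSG00000017737) lies on chr2:164940780-164955850 on the + strand in GRCm38. The tested genes with the patterns nearest to it were Rufy4 (rho = 0.933), Oscar (rho = 0.921) and Ctsk (rho = 0.920, r = 0.912). Oscar is an osteoclast receptor and Ctsk encodes cathepsin K, the collagen-cutting protease of osteoclasts. Ctsk ran from 14.2 to 2449 RPKM over the tumors with a median of 162.3, and its group medians followed the order of those of Mmp9, at 303 in glargine, 199 in vehicle, 157 in insulin, 115.4 in IGF1 and 77.3 in X10, except that glargine and vehicle changed places. Within the groups rho of Mmp9 with Ctsk was 0.612 in vehicle, 0.976 in insulin, 0.964 in glargine, 0.988 in X10 and 0.782 in IGF1 (n = 10 each).

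After these neighbours had been seen, further osteoclast genes were examined, and the values are a description. Acp5, which encodes the osteoclast phosphatase TRAP, had rho = 0.914 with Mmp9 and ran from 36.4 to 2911 RPKM. The fusion genes Ocstamp and Dcstamp had rho = 0.919 and 0.813, the proton pump subunit Atp6v0d2 0.878, the calcitonin receptor Calcr 0.835 and the transcription factor Nfatc1 0.774. Tnfsf11 had 0.681, its receptor Tnfrsf11a 0.529 and the integrin Itgb3 0.464. Fos, 1 of the 12 listed factors that induce MMP transcription, had rho = 0.804 with Mmp9. The values of the other listed factors with Mmp9 are not given here. With Mmp3 the rho of these genes other than Fos ran from 0.172 (Tnfrsf11a) to 0.679 (Tnfsf11), and with Mmp2 from 0.129 (Tnfrsf11a) to 0.597 (Tnfsf11), Ctsk standing at 0.59 and 0.553. Markers of bone-forming cells had low medians, 0.196 RPKM for Ibsp, 0.126 for Bglap and 0.031 for Sp7, and Bglap was listed at 0 in 10 tumors. In single tumors they reached 18.1, 4.40 and 0.73 RPKM. Of the cartilage genes in the same list, Acan had a median of 11.7 RPKM. Col2a1 and Col10a1 had medians of 1.43 and 0.155 RPKM and reached 329.5 and 52.7. Several of the osteoclast genes are also made by macrophages and multinucleated giant cells. The macrophage score had r = 0.01 and rho = 0.02 with Mmp9. This score rests on Cd68, Csf1r, Mrc1, Lyz2 and Cd14, since Adgre1, also listed, was not found by name. Which cell type held the transcripts was not tested.

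**Figure D5:**
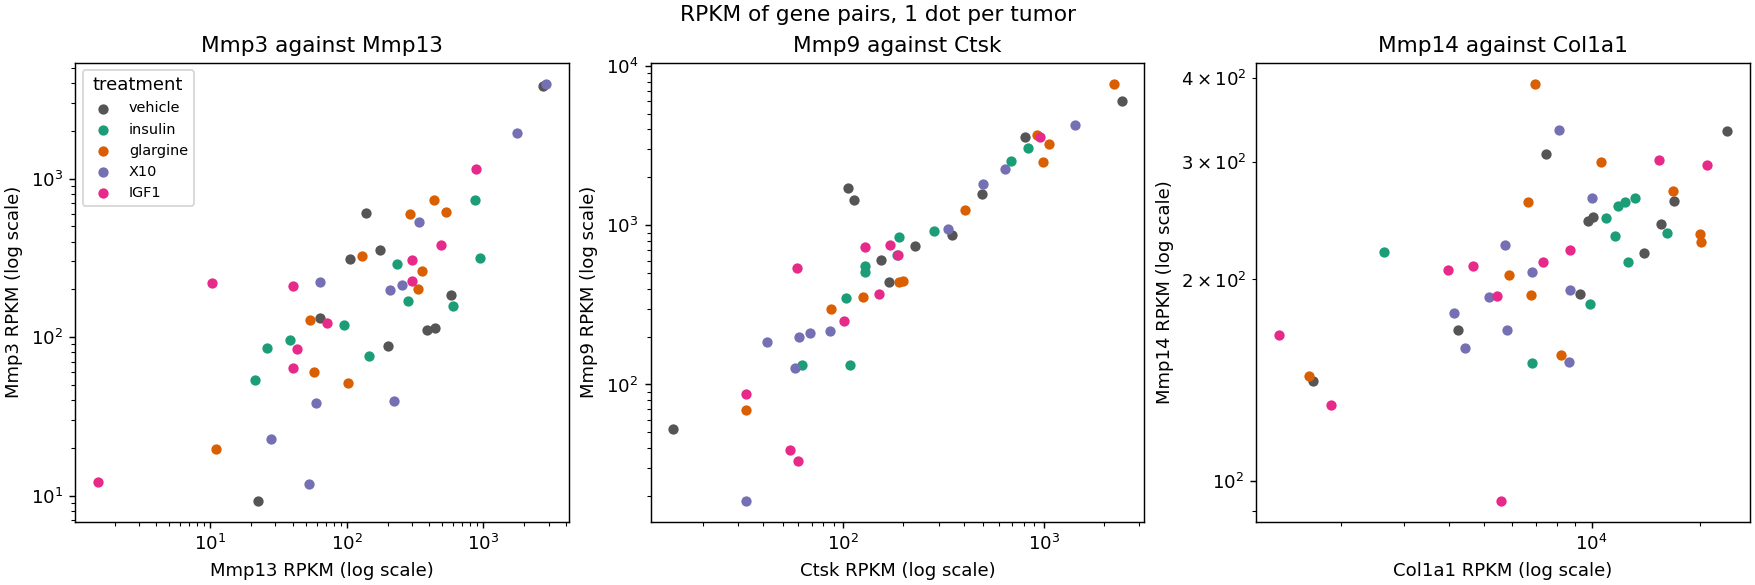
RPKM (log scales) of Mmp3 against Mmp13, Mmp9 against Ctsk and Mmp14 against Col1a1 in 50 tumors, 1 dot per tumor, coloured by treatment. The dots of all 5 colours follow 1 diagonal in the panel of Mmp9 and Ctsk (rho = 0.920) except for single tumors such as Untreated_174 and Untreated_195, which have 112.9 and 106.1 RPKM of Ctsk at 1452 and 1716 RPKM of Mmp9, and the panel of Mmp14 and Col1a1 (rho = 0.662) is looser.

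The nearest genes of the other MMPs were different ones. Mmp2 (chr8:92827291-92853420) and Mmp14 (chr14:54431612-54445364), an enzyme and its activator, both had Nfatc4 as the gene with the nearest pattern, at rho = 0.687 and 0.689, and r between the 2 enzymes was 0.479 (adjusted p = 0.0025). The next nearest to Mmp2 were Cacna1g (rho = 0.667), a calcium channel subunit, and Shc2 (rho = 0.661), a signaling adaptor. The second nearest to Mmp14 was Col1a1 (rho = 0.662), the main chain of type I collagen, which Mmp14 can cut, and the third was Ankrd35 (rho = 0.656). Mmp19 (chr10:128790910-128800824) was nearest to Rnf149 (rho = 0.763), to Areg (rho = 0.759), which encodes the EGF receptor ligand amphiregulin, and to Gm5483 (rho = 0.72). Mmp11 was nearest to Mrgpre (rho = 0.681), a gene with a mean of only 1.34 RPKM, 2810408A11Rik (rho = 0.625) and Snx15 (rho = 0.614). Exons of Mmp11 overlap those of Chchd10 on the opposite strand, those of Mmp19 overlap Gm47093 and Tmem198b, and those of Timp3 overlap Syn3 likewise, and none of the 10 shares exons with a gene on its own strand. The counting was run with the defaults of HTSeq, which keep the strands apart.

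The nearest genes of the TIMPs had rho between 0.602 and 0.658. Timp1 (chrX:20870166-20874735) was nearest to Ly6a (rho = 0.612), Erlec1 (rho = 0.603) and Ly6c1 (rho = 0.602). Ly6a encodes the stem and stromal cell antigen Sca-1. Timp2 was nearest to Plxdc1 (rho = 0.658), Mme (rho = 0.641), which encodes the membrane metalloendopeptidase CD10, and Golph3l (rho = 0.633). Timp3 was nearest to Fam211b, Osmr, the oncostatin M receptor, and Dse, each at rho = 0.653.

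Marker scores of 9 cell types were then set beside each gene, which gave 90 combinations. Of these 10 passed (Pearson r, permutation test, adjusted over the 90). The share of other genes that pass with these scores was not determined. The neutrophil score rose with Mmp13 (r = 0.518, rho = 0.47, adjusted p = 0.0078 and 0.0138) and with Mmp3 (r = 0.497, rho = 0.49, adjusted p = 0.0078 and 0.00765). The fibroblast score rose with Mmp14 (r = 0.518, rho = 0.518, adjusted p = 0.0078 and 0.0066) and with Mmp19 (r = 0.482, rho = 0.447, adjusted p = 0.0187 and 0.0144). Without the 2 tumors farthest from the median score these r were 0.483, 0.525, 0.496 and 0.353, and with group means removed 0.50, 0.51, 0.509 and 0.489. By rank the fibroblast score also rose with Mmp13 (rho = 0.563, adjusted p = 0.0063), Mmp2 (rho = 0.523, adjusted p = 0.0063) and Mmp3 (rho = 0.403, adjusted p = 0.0379). For these 3 genes r over all tumors was 0.349, 0.306 and 0.178, with adjusted p-values of 0.105, 0.176 and 0.651, and without Untreated_161 alone all 3 passed, at r = 0.605, 0.597 and 0.439 (adjusted p = 0.00045, 0.00045 and 0.021, permutation test). Mmp13 fell with the macrophage score (r = -0.43, adjusted p = 0.0265), which by rank did not pass (rho = -0.29, adjusted p = 0.223). The remaining 5, at an adjusted p of 0.0463 each, were Mmp2, Mmp11 and Mmp19 with neutrophil, Mmp9 with bone and cartilage, and Timp2 with epithelium, the last at r = -0.39. By rank Mmp19 and Mmp9 passed (adjusted p = 0.0138 each, permutation test of rho). Mmp2, Mmp11 and Timp2 did not (adjusted p = 0.0812, 0.138 and 0.235, same test). Without the 2 tumors farthest from the median score r was 0.427, 0.222, 0.296, 0.552 and -0.24 in the order named. The bone and cartilage list holds Acp5, one of the osteoclast genes above, and without it Mmp9 had r = 0.06 with the list (adjusted p = 0.89), an alternative chosen after seeing the data.

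These 5 were called in 9 to 16 of the 50 fits that left out 1 tumor, while the pairs of Mmp3 and Mmp13 with neutrophil and of Mmp14 with fibroblast were called in all 50. The summed RPKM of the neutrophil list, of which 6 of 6 genes were found, had group medians from 85.4 in IGF1 to 250.5 in vehicle. Its most specific member Ly6g had a median of 0.149 RPKM and was listed at 0 in 9 tumors. The score was taken from the 5 genes that passed the filter for testing, and Ly6g was not among them. The neutrophil score was itself correlated with the epithelium score (r = 0.55). The fibroblast list summed to group medians from 7128 RPKM in IGF1 to 13986 in insulin. It holds Col1a1, Col3a1, Pdgfra, Pdgfrb, Dcn, Lum, Fap and Thy1. The study counts Pdgfrb among its mesenchymal genes and describes its EMT tumors as mainly mesenchymal cells. Whether the score came from stromal fibroblasts or from cancer cells was not tested. What part the cell content had in the differences of each MMP was not tested, beyond the fit with epithelium, muscle and adipocyte scores as covariates, in which 0 of the 10 genes were called in any comparison.

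The other genes of the pathway gave no call either. Of 57 genes listed, 51 were tested, and 0 of 51 passed in any of the 8 tests (limma), the smallest adjusted p being 0.134. At an unadjusted p under 0.05 there were 4 genes in insulin, 5 in glargine, 1 in X10 and 6 in IGF1 against vehicle, 6 in the pooled comparison, 4 between glargine and insulin, 3 between X10 and insulin and 7 in the test of any difference. Over all genes tested the shares at that p were 11.1%, 6.23%, 11%, 8.84%, 10.5%, 3.96%, 11.3% and 13.1% in the same order, and the share of the 51 genes was above that of all genes in 5 tests and below it in 3. The smallest p was that of Adam15, a membrane-bound disintegrin and metalloproteinase, which differed by -0.60 ± 0.18 (SE) between X10 and insulin at an adjusted p of 0.134. Reck, a membrane-anchored inhibitor of MMPs, differed by -0.35 ± 0.13 (SE) in the pooled comparison at an adjusted p of 0.244. Among the other MMPs Mmp1b, with a median of 0.221 RPKM, had rho = 0.681 with Mmp13 and 0.658 with Mmp3. Mmp10 had rho = 0.703 with Mmp19.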

How the data were processed

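Poly-A RNA of 50 MG tumors was sequenced on the Ion Proton. The submitters' processing notes name TopHat2 2.0.10 and Bowtie2 for alignment to GRCm38, HTSeq 0.6.1 for counting and DESeq2 1.2.10. The authors deposited RPKM values per gene, not log-transformed. The treatment groups come from the sample titles, in which IFG1_132 was read as an IGF1 tumor.

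Differences were tested with limma 3.58.1 in R 4.3.3 (intensity trend, no covariates, all 50 tumors) on log2(RPKM + 0.5) for genes with a mean of at least 0.5 RPKM, with Benjamini-Hochberg adjustment and a threshold of 0.05. Fold changes are on that scale, which understates the change of low genes. Correlations used two-sided permutation tests (100000 resamples). Within a gene the RPKM are multiples of a step, from which whole reads and gene lengths were recovered for 15847 of the 16733 genes tested (94.7%), with at least 97.2% of low values whole in every tumor, and limma voom was run on these reads. The deposited length lay within 1 base of the median transcript length of GENCODE M21 for 54.7% of 15665 genes. The scripts were tested on simulated data.

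All 10 MMPs and TIMPs are named, with the 3 genes of highest Spearman rho to each. The genes, gene lists and tests were chosen with earlier results of these data known. Single log2 differences are given where the unadjusted p was under 0.1. Other pseudocounts, filters, scalings, covariates and tumors left out were tried as alternatives.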

Additional observations from a re-analysis of the deposited data

Results flagged for a closer look

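In 2 of the 50 combinations of gene and group, 1 tumor stood apart from the other 9 by a gap that, as a share of the group's range on the log2(RPKM + 0.5) scale, was above Dixon's critical value at 95%, which chance gives in about 5% of groups. For Mmp19 in the vehicle group this was Untreated_182, at 3.89 RPKM against 11.2 in the next lowest tumor (gap over range 0.563 on that scale). For Timp2 in the X10 group it was X10_105, at 144 RPKM against 282 in the next lowest (gap over range 0.487 on that scale). X10_105 also had the highest epithelium score of the 50 tumors and Untreated_182 the 4th highest, and the part of cell content in either value was not tested.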

How the results depend on the processing

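No paired analysis was possible because the numbers in the labels name single mice and are shared by no 2 groups. The count of the 10 genes called was 0 in each comparison under every alternative, tumors left out included, the smallest adjusted p being 0.125 (X10 against insulin), and none of the 8 differences with an unadjusted p under 0.1 changed sign. The number of correlated pairs ran from 11 (Spearman rho) to 14, and from 11 to 15 when 1 tumor was left out. The number of marker combinations called, 10 of 90, was 5 with a pseudocount of 0.1, 5 with Acp5 taken out of the bone and cartilage list (added after seeing the data), 9 by Spearman rho, and 11 with group means removed or with quantile normalization. It was 4 to 10 when 1 tumor was left out, 4 without insulin_13, insulin_15, glargine_69 or IFG1_132. These counts are over all 90 and do not always cover the same combinations. Calls over all genes moved more, from 1 to 24 for X10 against vehicle (11 as reported), from 11 to 82 for X10 and IGF1 pooled (26), from 7 to 31 for X10 against insulin (17), from 0 to 27 for any difference (17), from 0 to 2 for insulin (0) and from 0 to 1 for IGF1 (1). With 1 tumor left out they ran from 1 to 21, 10 to 131, 5 to 95, 0 to 110, 0 to 3 and 0 to 3, and for glargine from 0 to 1. The causes were not tested. Depth gave at least 169 reads per gene and tumor.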
